A study of Mus musculus with 4 samples.

Results

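Transforming growth factor beta (TGF-beta) ligands, receptors and SMAD proteins were followed across the cell classes of the mouse hippocampus. The 10 genes were taken by symbol from the feature list of 55403 entries, without use of any measured value. They are the ligands Tgfb1, Tgfb2 and Tgfb3, Nrros, the receptors Tgfbr1 and Tgfbr2, and Smad2, Smad3, Smad4 and Smad7. Each symbol matched 1 feature. Counts of unique molecular identifiers (UMIs) were summed per class and library, and levels are given as CPM, the gene's UMIs scaled to the total UMIs of the class.

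Nuclei came from frozen, pooled hippocampus of WT mice (1 library), PS19 mice (2 libraries) and TG_PS19 mice (1 library). PS19 mice carry human MAPT with the P301S change in 1N4R tau under the prion protein (Prnp) promoter, and are used as a tauopathy model. TG_PS19 mice carry that transgene and a second one in the Rosa26 locus that overexpresses SORLA, the product of SORL1, under a CMV/β-actin element that is not restricted to one cell type. The series title gives the animals as aged and the protocol calls them littermates, and their number per pool, exact age and sex are not stated in the labels. Setting PS19 against WT asks what goes with the tau transgene. Setting TG_PS19 against PS19 asks what goes with added SORLA in mice that all carry mutant tau. Both comparisons use the same PS19 libraries. WT and TG_PS19 have no replicate, and nothing states that the 2 PS19 libraries came from separate animals, so a p-value here measures only the spread of that pair of libraries.

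TGF-beta is secreted in a latent form that binding proteins hold until it is released. Active ligand joins the type II receptor (Tgfbr2) to the type I receptor (Tgfbr1), which phosphorylates SMAD2 and SMAD3. These enter the nucleus with SMAD4, and SMAD7 is induced and turns the receptor off again. In the brain, TGF-beta signalling is known for keeping microglia in their homeostatic state, and NRROS is the protein on microglia that tethers latent TGF-beta1 for local activation.

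The 4 libraries held 20064025 to 48670533 UMIs. WT and TG_PS19 held 12762 and 9719 barcodes at medians of 2643 and 2659 UMIs per nucleus, with 10.21% and 7.78% left out as doublets. The PS19 pair held 4643 and 4924 barcodes at medians of 2996 and 3708.5 UMIs, with 3.7% and 3.94% left out. Recovery, depth and doublet share therefore went with group in both comparisons and cannot be told apart from the transgenes. WT held more barcodes than the about 10000 nuclei loaded. After limits on quality and removal of doublets, 4467 to 11458 nuclei per library were kept. Human MAPT had 0 UMIs in WT and 329, 453 and 428 in PS19 replicate 1, PS19 replicate 2 and TG_PS19. Human SORL1 had 2204 UMIs in TG_PS19 and 0 to 7 in the others. The TG_PS19 library stood apart in sex-linked transcripts: a Xist UMI was present in 55.04% of its nuclei against 0.89% to 1.44% in the other libraries, and a Y-linked UMI in 28.48% against 68.76% to 76.67%. The transgene and the sex of the animals therefore cannot be told apart where all TG_PS19 nuclei are compared with PS19. Values for Y-called nuclei (a Y-linked UMI and no Xist UMI) and Xist-called nuclei (the reverse) are given beside the members called in that comparison. Each pair of libraries shared 5 to 32 cell barcodes, at most 0.474% of the smaller library.

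Microglia, the class on which several results turn, were defined by 8 markers such as Csf1r, Cx3cr1 and P2ry12, all 8 with UMIs in every library. Their summed level was 13420, 11950, 10440 and 12030 CPM in WT, the PS19 pair and TG_PS19. The class joined a cluster with Siglech among its leading genes and a cluster led by Ly86. The first held 93.9% of WT and 95.1% of TG_PS19 microglia, and the second 78.2% and 78.5% of the microglia in the PS19 pair. The microglial share of kept nuclei was 5.18% in WT, 5.96% and 6.20% in the PS19 pair and 4.59% in TG_PS19.

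The sequence before the start site is shown for the 4 genes whose microglial level lay above that of every other tested class in all 4 libraries (Tgfb1, Nrros, Tgfbr1 and Tgfbr2). It is also shown for Tgfb2, the ligand whose level among the tested classes was highest in endothelial cells. Each line holds the 250 bases upstream of the RefSeq start (GRCm38.p6), 5′ to 3′ on the gene's strand. Capitals mark GAGGAA, the core bound by the myeloid factor PU.1, and CAGAC, a SMAD-binding element, on either strand.
Tgfb1 (chr7:25686752-25687001, plus strand): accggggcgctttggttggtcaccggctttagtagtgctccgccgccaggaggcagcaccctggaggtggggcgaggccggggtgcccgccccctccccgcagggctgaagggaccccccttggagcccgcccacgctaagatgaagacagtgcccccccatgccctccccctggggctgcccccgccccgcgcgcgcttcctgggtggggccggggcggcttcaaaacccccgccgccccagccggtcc
Nrros (chr16:32165595-32165844, minus strand): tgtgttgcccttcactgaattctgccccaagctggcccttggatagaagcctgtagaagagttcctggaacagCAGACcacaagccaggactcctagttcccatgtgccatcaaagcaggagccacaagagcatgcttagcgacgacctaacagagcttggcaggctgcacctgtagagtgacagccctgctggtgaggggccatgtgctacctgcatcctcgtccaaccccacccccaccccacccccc
Tgfbr1 (chr4:47352972-47353221, plus strand): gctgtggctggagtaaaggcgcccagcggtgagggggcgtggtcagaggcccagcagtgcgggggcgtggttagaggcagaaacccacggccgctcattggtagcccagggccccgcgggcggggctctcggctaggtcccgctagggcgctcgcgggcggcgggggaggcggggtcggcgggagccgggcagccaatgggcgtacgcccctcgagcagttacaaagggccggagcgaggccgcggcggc
Tgfbr2 (chr9:116175364-116175613, minus strand): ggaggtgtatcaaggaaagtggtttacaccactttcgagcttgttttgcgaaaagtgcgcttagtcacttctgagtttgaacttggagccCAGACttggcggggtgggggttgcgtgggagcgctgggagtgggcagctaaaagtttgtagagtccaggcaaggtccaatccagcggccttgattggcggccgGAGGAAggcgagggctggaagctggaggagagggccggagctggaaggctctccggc
Tgfb2 (chr1:186705990-186706239, minus strand): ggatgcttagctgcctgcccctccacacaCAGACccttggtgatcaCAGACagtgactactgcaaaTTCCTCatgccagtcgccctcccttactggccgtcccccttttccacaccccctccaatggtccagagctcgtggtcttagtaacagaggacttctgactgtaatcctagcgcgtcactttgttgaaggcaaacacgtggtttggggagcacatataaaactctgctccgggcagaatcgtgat
Tgfbr2 held 1 GAGGAA at -57 and 1 CAGAC at -160, counted from the start. Nrros held 1 CAGAC at -177 and no GAGGAA. Tgfb2 held 1 GAGGAA at -184, read on the opposite strand, and 2 CAGAC, both further upstream. Neither motif was in the Tgfb1 window or in this Tgfbr1 window, where 75.2% and 74.8% of bases were G or C. RefSeq lists another Tgfbr1 start, whose window (chr4:47385966-47386215, plus strand) is not printed and held 1 GAGGAA at -95 and 1 CAGAC at -203. Of 32851 mouse windows of this length, 23.2% held GAGGAA and 42.2% held CAGAC, so these matches describe the letters and no more. The genes themselves span chr7:25687002-25705077 (Tgfb1), chr16:32142785-32165594 (Nrros), chr4:47353222-47414931 (Tgfbr1), chr9:116084293-116175360 (Tgfbr2) and chr1:186622792-186705989 (Tgfb2) in GENCODE M21. Tgfb2 overlaps Gm29491 and Tgfb3 overlaps Ttll5 on the other strand. Whether counting used strand is not given in the sources used here, so Tgfb3 values are uncertain.

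The 3 ligands had their highest levels in different classes. Among the tested classes Tgfb1 was highest in microglia. They held 262, 141, 198 and 216 CPM in WT, PS19 replicate 1, PS19 replicate 2 and TG_PS19. Microglia had 57.0% to 74.1% of the library's Tgfb1 UMIs. Endothelial cells followed with 52.6 to 66.7 CPM and mural cells with 29.8 to 61.4 CPM, and these 2 ranges overlapped. Dentate granule neurons had the lowest mean of the tested classes, at 0.122 to 0.685 CPM, and 1 to 5 UMIs per library. Border macrophages, a class too small to test, held 175 to 309 CPM on 20 UMIs over all libraries, which overlaps microglia.

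Tgfb2, the isoform known from neurons, astrocytes and vessels, had a different order. Endothelial cells held 181, 116, 120 and 111 CPM, dentate granule neurons 96.1, 77.8, 77.7 and 92.6 CPM, and astrocytes 63.7 to 74.3 CPM. The ranges of these 3 classes did not overlap. Microglia held 4 to 6 Tgfb2 UMIs per library. Outside the tested classes, choroid plexus epithelium, which makes cerebrospinal fluid, had 241, 216, 193 and 277 CPM from 31 to 58 UMIs. That lies above the endothelial level in each library. Under the doublet setting first used, 0 WT nuclei took this class name, so the WT value depends on that setting. Nuclei of clusters that took no class name held 211 CPM in WT, a PS19 mean of 367 CPM and 67.5 CPM in TG_PS19, on 630 UMIs. Only the TG_PS19 value lay under the endothelial one of its library.

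Tgfb3 was low everywhere. Oligodendrocytes held 19.5, 16.9, 18.4 and 18.6 CPM, and no other tested class held a larger mean. Mural cells, the next class, ranged from 4.00 to 22.4 CPM on 1 to 9 UMIs, which overlaps oligodendrocytes. Microglia had 0 to 2 Tgfb3 UMIs.

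Nrros had 222, 166, 205 and 172 CPM in microglia. Border macrophages, a class of 5 to 26 nuclei per library that was too small to test, held 334, 619, 349.5 and 271 CPM on 5 to 14 UMIs, above the microglial value in each library but with few counts. The next tested class was endothelial cells at 8.34 to 26.3 CPM, which overlapped astrocytes at 9.17 to 20.1 CPM. Oligodendrocyte precursors had 1 Nrros UMI in all libraries together.

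Among the tested classes both receptors were highest in microglia, by a wide margin for the type I receptor. Tgfbr1 reached 2375, 1923, 2107 and 2658 CPM there, against 243 to 280 CPM in fibroblasts, the next class. Mural cells (107 to 142 CPM) and endothelial cells (80.6 to 105 CPM) came next without overlap, and CA1 pyramidal neurons were lowest with 2.82 to 5.51 CPM. Microglia contributed 51.9% to 58.2% of all Tgfbr1 UMIs of a library. After each nucleus was thinned to 1000 UMIs, a Tgfbr1 UMI remained in 87.2%, 78.7%, 79.8% and 88.7% of microglia in WT, the PS19 pair and TG_PS19, and in 4.88% to 6.49% of oligodendrocytes. Unthinned, the microglial shares were 94.3%, 93.6%, 95.2% and 96.1%, at median depths of 1604, 2225, 2607 and 1649 UMIs.

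Tgfbr2, which binds the ligand, held 517, 682, 650 and 415 CPM in microglia. Border macrophages, too few to be tested, held 811, 1135, 757 and 379 CPM on 34, 11, 13 and 7 UMIs, a higher value than in microglia in 3 of 4 libraries. Endothelial cells (129 to 228 CPM), fibroblasts (135 to 183 CPM) and oligodendrocytes (123 to 160 CPM) formed a second tier with overlapping ranges, and mural cells lay just under it at 93.1 to 120 CPM. Among neurons, Cajal-Retzius neurons had 26.2 to 53.5 CPM and stood above the rest, such as dentate granule neurons with 5.22 to 6.16 CPM. Cajal-Retzius neurons had no Smad3 UMI in any library, of 186942 to 372466 UMIs each, which allows up to 16.05 CPM in the shallowest. In the thinned nuclei 39.5%, 44.5%, 47.6% and 31.99% of microglia had a Tgfbr2 UMI, against 0.183% to 0.627% of dentate granule neurons.

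The SMADs were spread more evenly. Smad2 and Smad4 passed the count filter in all 12 tested classes. Smad2, a receptor-activated SMAD, ranged from a mean of 23.1 CPM in oligodendrocytes to 128 CPM in microglia, and each class overlapped the next except other excitatory neurons and CA1 pyramidal neurons. Smad4, the shared partner, ran from 39.4 CPM in inhibitory neurons to 154 CPM in endothelial cells.

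Smad3, the other receptor-activated SMAD, held 223, 248, 258 and 226.5 CPM in fibroblasts and 212, 196, 228 and 207 CPM in microglia, which overlap. Dentate granule neurons followed with 136, 114, 110 and 144 CPM and stood above CA1 pyramidal neurons, at 32.9 to 51.6 CPM, in every library. Oligodendrocytes were low for Smad3 at 12.6 to 25.5 CPM.

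The inhibitory Smad7 was highest in oligodendrocytes among the tested classes, with 461, 450, 461 and 365 CPM. They held 66.4% to 75.2% of each library's Smad7 UMIs. Oligodendrocytes made up 28.3% to 41.2% of kept nuclei. Endothelial cells (229 to 361 CPM) and microglia (241 to 289 CPM) overlapped each other. Oligodendrocyte precursors had 29.9 to 53.5 CPM. Newly formed oligodendrocytes, too few to test, had 28.2, 134, 249 and 370 CPM on 1, 17, 50 and 46 UMIs.

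**Figure D1:**
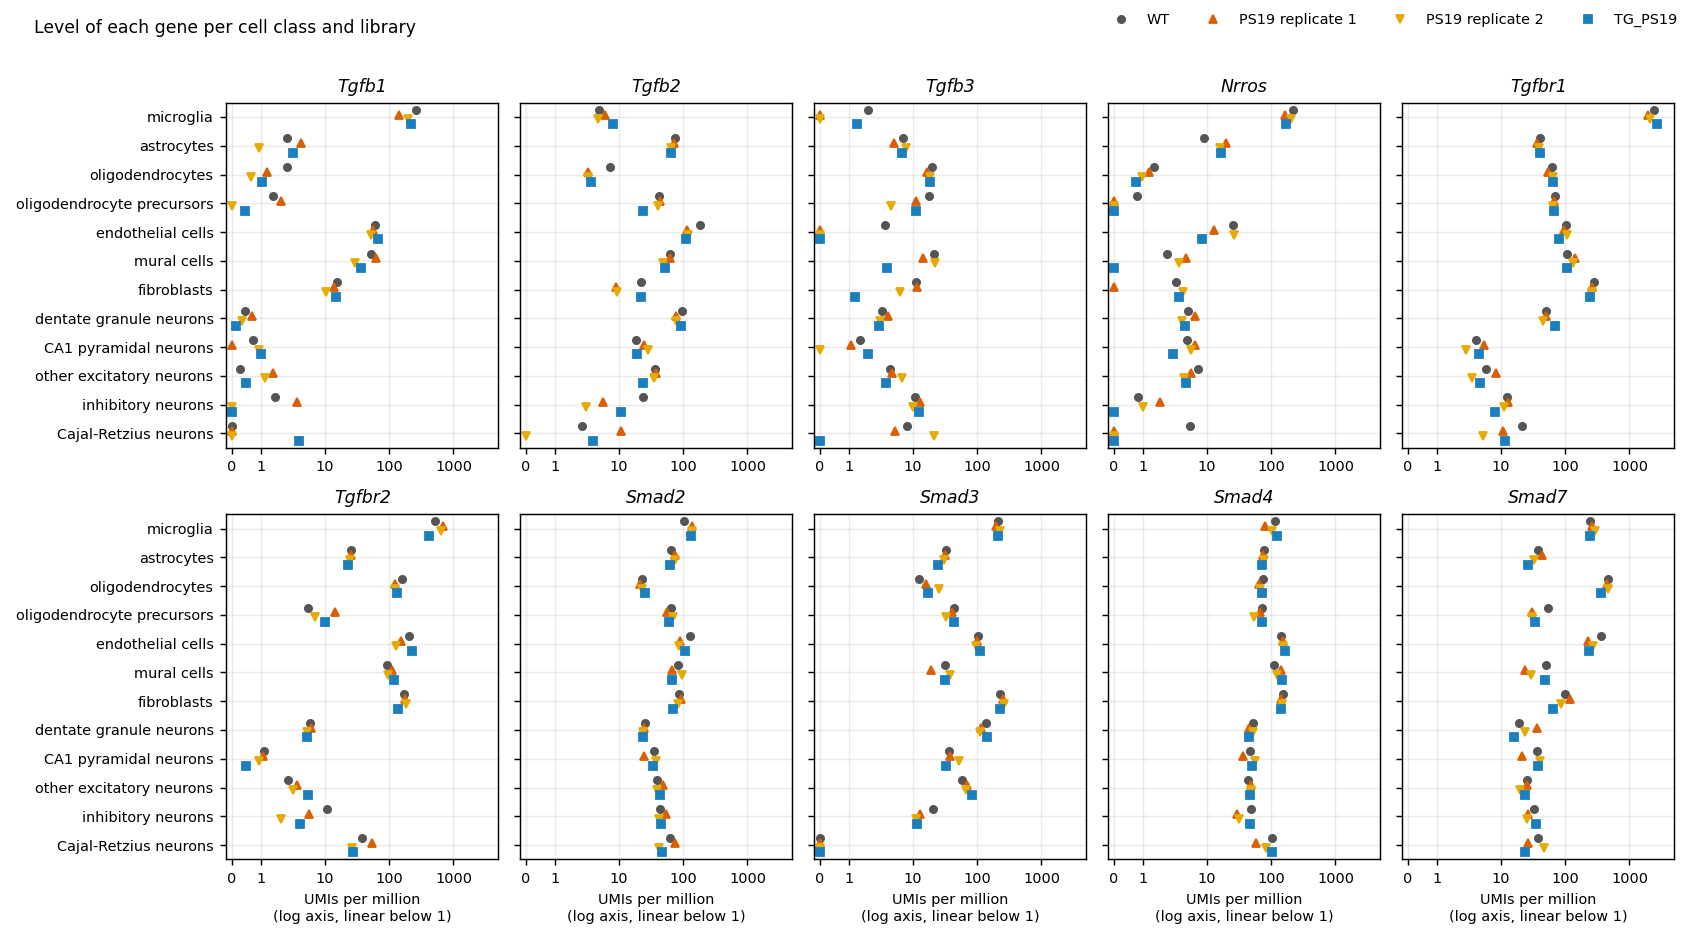
Level of each of the 10 genes (CPM, log axis that is linear below 1) in the 12 tested classes, with 1 point per library. Microglia lie to the right of every other class for Tgfb1, Nrros, Tgfbr1 and Tgfbr2, oligodendrocytes do so for Smad7 and endothelial cells for Tgfb2.

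Across the means of the 12 classes, log2(CPM + 1) of Tgfb1 was most like that of Casp8 (Pearson's r = 0.99) and Plaur (0.98), and Tgfbr2 most like Dennd6a and Rlim (both 0.98). Tgfbr1 was most like Prpf38b (0.96) and Spty2d1 (0.94), Smad4 like Zmym5 (0.98) and Gtf2e2 (0.97), and Smad7 like Zcchc2 (0.95) and Pdcd6ip (0.94). Smad2 was like Blvrb (0.95), Nrros like Tpst2 (0.94) and Cyfip1, and Tgfb2 like Il17rd and Colgalt2 (0.88 and 0.87). The other two were Tgfb3 with Cadm4 (0.87) and Smad3 with Tbc1d8b (0.88). These are the top values of 12983 candidate genes over only 12 points that share libraries, and they are a description. Between the 10 genes, Tgfbr1 and Tgfbr2 had r = 0.84, Tgfbr2 and Smad4 r = 0.85, and Nrros and Tgfb3 r = -0.76.

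PS19 was then set against WT with edgeR's quasi-likelihood test on the summed counts of each class, with Benjamini-Hochberg adjustment within the class at 0.05. Of the 120 gene and class pairs, 95 passed the count filter in each comparison. In PS19 against WT, 5 of the 95 passed the test, or 5.26%, against 2.81% of all 144044 gene and class pairs. They were Tgfb1 in microglia and Tgfb2 in inhibitory neurons, which fell, and Nrros in astrocytes, Smad3 in oligodendrocytes and Smad7 in dentate granule neurons, which rose. In all, 15 pairs had an unadjusted p under 0.05, and the median log2 fold change over the 95 pairs was -0.06. DESeq2 on the same sums called 0 of the 95, and 0 at an unadjusted p under 0.05, so each call below rests on edgeR. After libraries were thinned to equal depth, Smad3 in oligodendrocytes was the 1 pair still called. In 9 of the 12 classes edgeR shared the spread fully across genes, which gives a gene's own difference within the PS19 pair no weight.

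Tgfb1 in microglia was 262 CPM in WT against 141 and 198 CPM in the PS19 pair. Both PS19 libraries lay under WT, and replicate 2 was nearer to TG_PS19 (216 CPM) than to its own partner. The log2 fold change was -0.62 ± 0.18 (SE), with an adjusted p of 0.0091 by edgeR, in a class where 8.85% of genes were called. Without PS19 replicate 1 or 2 it was -0.41 or -0.91. With doublets kept it was -0.26 and not called. By cluster, WT again lay above both PS19 libraries, with overlapping counting intervals. It held 265 CPM in the Siglech cluster, where the PS19 pair held 174 and 226 CPM and TG_PS19 222 CPM. In the Ly86 cluster WT held 219 CPM on 16 UMIs, the PS19 pair 134 and 191 CPM, and TG_PS19 114 CPM on 5 UMIs. In the thinned nuclei a Tgfb1 UMI was in 23.1% of WT and 12.5% and 18.8% of PS19 microglia.

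The other members in microglia did not pass. Tgfbr2 was 517 CPM in WT and 682 and 650 CPM in the PS19 pair, both above WT (log2 fold change 0.35 ± 0.16, adjusted p = 0.18). Tgfbr1 was 2375 against 1923 and 2107 CPM (-0.25 ± 0.15, adjusted p = 0.38). Nrros, Smad3, Smad4 and Smad7 had log2 fold changes from -0.34 to 0.17, and Smad2 one of 0.44. By cluster, Tgfbr2 was 506 CPM in WT against 564 and 550 CPM in the PS19 pair in the Siglech cluster. In the Ly86 cluster it was 658 CPM against 706 and 674 CPM. The counting intervals overlapped in both clusters, and the part of the cluster mix in the Tgfbr2 values of the whole class was not tested.

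Nrros in astrocytes was 9.17 CPM in WT against 20.1 and 16.2 CPM in the PS19 pair, on 72, 47 and 51 UMIs. The groups did not overlap, and the log2 fold change was 0.94 ± 0.28 (adjusted p = 0.018 by edgeR, with 5.62% of genes called in this class). TG_PS19 astrocytes had 16.4 CPM, within the PS19 pair, but their nuclei differed by sex call. The 452 Y-called TG_PS19 astrocytes had 7.16 CPM of Nrros (95% interval 3.57 to 12.8, 11 UMIs). The 832 Xist-called ones had 24.96 CPM (19.3 to 31.7, 67 UMIs), and the intervals did not overlap. Among Y-called nuclei alone, Nrros differed by -1.17 ± 0.46 on the log2 scale between TG_PS19 and PS19 astrocytes, which did not pass the test (adjusted p = 0.10 by edgeR). Microglial markers in these astrocytes, where 8 of 8 had UMIs, summed to 247 CPM in WT and 199 and 171 CPM in the PS19 pair. Border macrophage markers, of which 5, 2, 3 and 3 of 6 had UMIs and Lyve1 was at 0 in all 4 libraries, summed to 17.2, 29.1, 20.9 and 17.7 CPM. The part of either marker list in the result was not tested. The Gfap-rich astrocyte cluster held 8.46% of WT and 28.4% and 26.0% of PS19 astrocytes. In the larger cluster without it, Nrros was 9.48 CPM in WT against 21.3 and 17.0 CPM.

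Smad3 in oligodendrocytes was 12.6 CPM in WT, 16.0 and 25.5 CPM in the PS19 pair and 16.9 CPM in TG_PS19. The replicates differed from each other by more than replicate 1 differed from WT. The log2 fold change was 0.79 ± 0.22 (adjusted p = 0.0078 by edgeR, 6.85% of genes called), and it was 1.07 without PS19 replicate 1 and 0.39 without PS19 replicate 2.

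Smad7 in dentate granule neurons was 19.4 CPM in WT, 35.8 and 23.8 CPM in the PS19 pair and 16.1 CPM in TG_PS19. The rise over WT (0.61 ± 0.17, adjusted p = 0.022 by edgeR, 2.69% of genes called) was 0.33 without PS19 replicate 1 and 0.88 without replicate 2. With clusters at resolution 2.0 it was 0.29 and not called. Dentate granule neurons carried oligodendrocyte markers (8 of 8 with UMIs) at 596 CPM in WT against 472 and 485 CPM in the PS19 pair. Their part in the result was not tested.

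Tgfb2 in inhibitory neurons rested on the fewest counts: 28 UMIs in WT, 3 in each PS19 library and 13 in TG_PS19, or 23.4, 5.56, 3.06 and 10.7 CPM. The log2 fold change was -2.50 ± 0.67 (adjusted p = 0.029 by edgeR, 0.707% of genes called). The ratio depends on 3 counts a library, and 6 of 13 tested alternatives kept the call. Astrocyte markers in this class, 7 or 8 of 8 with UMIs, summed to 434 CPM in WT, 209 and 162 CPM in the PS19 pair and 346 CPM in TG_PS19, the order of Tgfb2 itself, and their part in the result was not tested.

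Tgfb3, Tgfbr1, Tgfbr2, Smad2 and Smad4 had no call in any class. Tgfb3 in oligodendrocyte precursors, Tgfbr2 in microglia and in oligodendrocytes and Smad2 in microglia had an unadjusted p under 0.05. Tgfb2 was lower in both PS19 libraries than in WT in dentate granule neurons (-0.29 ± 0.11, adjusted p = 0.19) and in endothelial cells (-0.59 ± 0.33, adjusted p = 0.81), without passing the test.

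**Figure D2:**
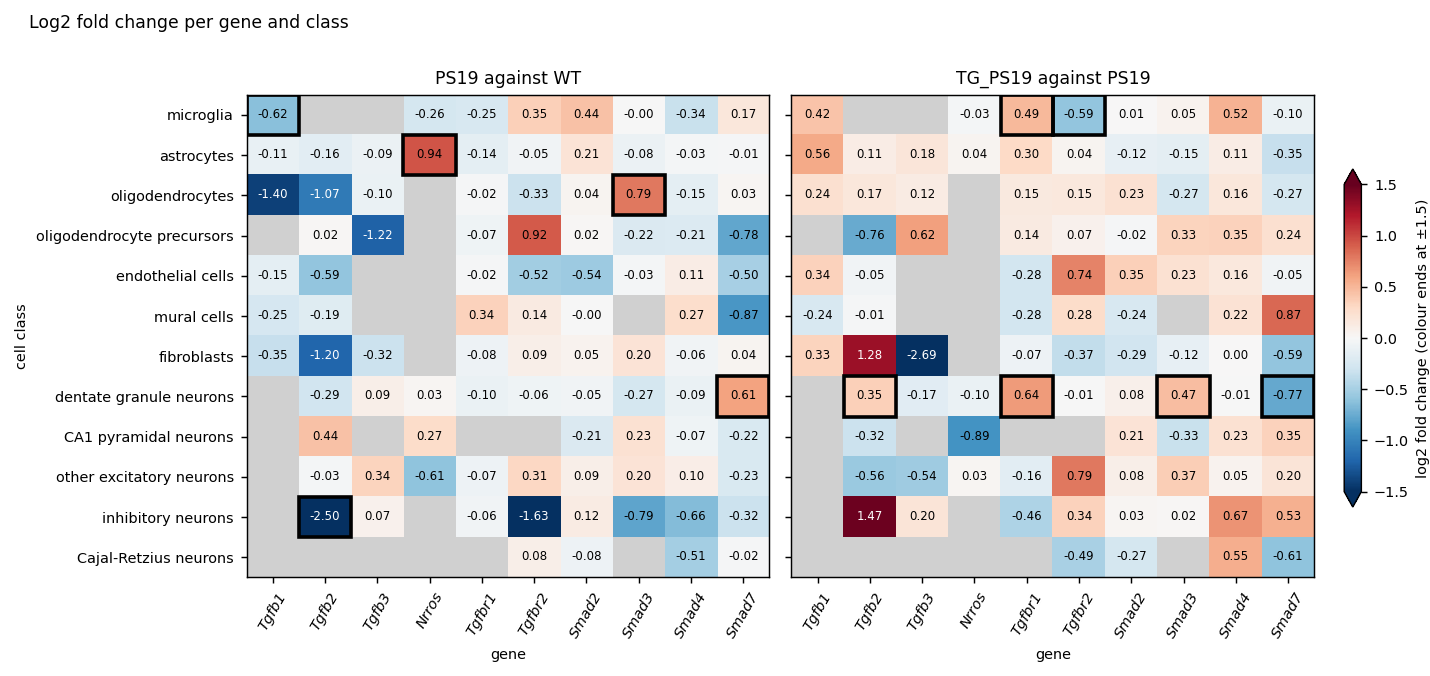
Log2 fold change (colour, number in the cell) of each gene in each tested class for PS19 against WT and TG_PS19 against PS19; black frames mark adjusted p under 0.05 by edgeR and grey cells were not tested. Frames stand on 5 cells on the left, 3 of them above 0, and on 6 on the right, 4 of them above 0.

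In TG_PS19 against PS19, 6 of the 95 pairs passed, or 6.32%, against 4.72% of all gene and class pairs. Of all calls 65.4% were higher, a share that became 46.5% with library totals in place of the scaling, which moved the median gene of a class by up to -0.19. Under library totals 5 of the 95 passed and no direction changed. The 6 were Tgfbr1, Smad3 and Tgfb2 in dentate granule neurons and Tgfbr1 in microglia, which rose, and Smad7 in dentate granule neurons and Tgfbr2 in microglia, which fell. DESeq2 called 0 of the 95, with 5 at an unadjusted p under 0.05. Among Y-called nuclei alone (a Y-linked UMI and no Xist UMI, in every library) 0 of the 6 passed.

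In dentate granule neurons, where 8.79% of genes were called, Tgfbr1 was 49.5 and 45.3 CPM in the PS19 pair and 68.7 CPM in TG_PS19, above both and above WT (51.2 CPM). The log2 fold change was 0.64 ± 0.13 (adjusted p = 3.3e-05 by edgeR). Within TG_PS19 the 214 Y-called nuclei had 64.9 CPM (95% counting interval 54.0 to 77.3) and the 699 Xist-called nuclei 70.1 CPM. Microglial markers in this class summed to 139 and 133 CPM in the PS19 pair and 180 CPM in TG_PS19, with 8 of 8 present in each. They moved with Tgfbr1, and their part in the result was not tested.

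Smad3 in the same neurons was 114 and 110 CPM in the PS19 pair and 144 CPM in TG_PS19, close to 136 CPM in WT (0.47 ± 0.11, adjusted p = 7.5e-04 by edgeR). Here the sex-called nuclei differed: 115 CPM (100.4 to 131) in Y-called and 157 CPM (146.5 to 167) in Xist-called TG_PS19 nuclei. The log2 fold change among Y-called nuclei was 0.11.

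Smad7 moved the other way, from 35.8 and 23.8 CPM to 16.1 CPM (-0.77 ± 0.19, adjusted p = 0.0012 by edgeR), with 17.3 CPM in Y-called and 16.7 CPM in Xist-called nuclei. Tgfb2 went from 77.8 and 77.7 CPM to 92.6 CPM, just under WT (0.35 ± 0.12, adjusted p = 0.035 by edgeR), with 93.1 and 94.2 CPM in the sex-called nuclei. For both genes TG_PS19 lay outside the PS19 pair. The Smad7 value was -0.49 without PS19 replicate 1 and -1.04 without replicate 2, and -0.49 and not called at resolution 2.0. The Tgfb2 call was also lost under library totals.

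In microglia, where 9.33% of genes were called, the receptors moved apart. Tgfbr1 rose from 1923 and 2107 CPM to 2658 CPM (0.49 ± 0.15, adjusted p = 0.012 by edgeR), and both sex-called groups of nuclei had 2675 CPM. With doublets kept it was 0.17 and not called. The Tgfbr1 call was also lost with sums thinned to equal depth and under the doublet setting first used. Tgfbr2 fell from 682 and 650 CPM to 415 CPM (-0.59 ± 0.17, adjusted p = 0.0084 by edgeR), with 534 CPM (423 to 664) in 79 Y-called and 393 CPM (335 to 459) in 230 Xist-called nuclei. The Tgfbr2 call was likewise lost with sums thinned to equal depth. TG_PS19 lay outside the PS19 pair for each gene. Within the Siglech cluster alone, Tgfbr2 was 564 and 550 CPM in the PS19 pair and 421 CPM in TG_PS19, with overlapping counting intervals. Tgfbr1 was 1805, 2371 and 2642 CPM there, and the intervals of PS19 replicate 2 and TG_PS19 overlapped. For Tgfbr1 the PS19 replicates differed from each other by more than replicate 2 differed from TG_PS19. The part of the cluster mix in the values of the whole class was not tested. Tgfb1 was 141 and 198 CPM in the PS19 pair and 216 CPM in TG_PS19 (0.42 ± 0.19, adjusted p = 0.18), and Nrros stayed within 166 to 205 CPM in these 3 libraries.

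**Figure D3:**
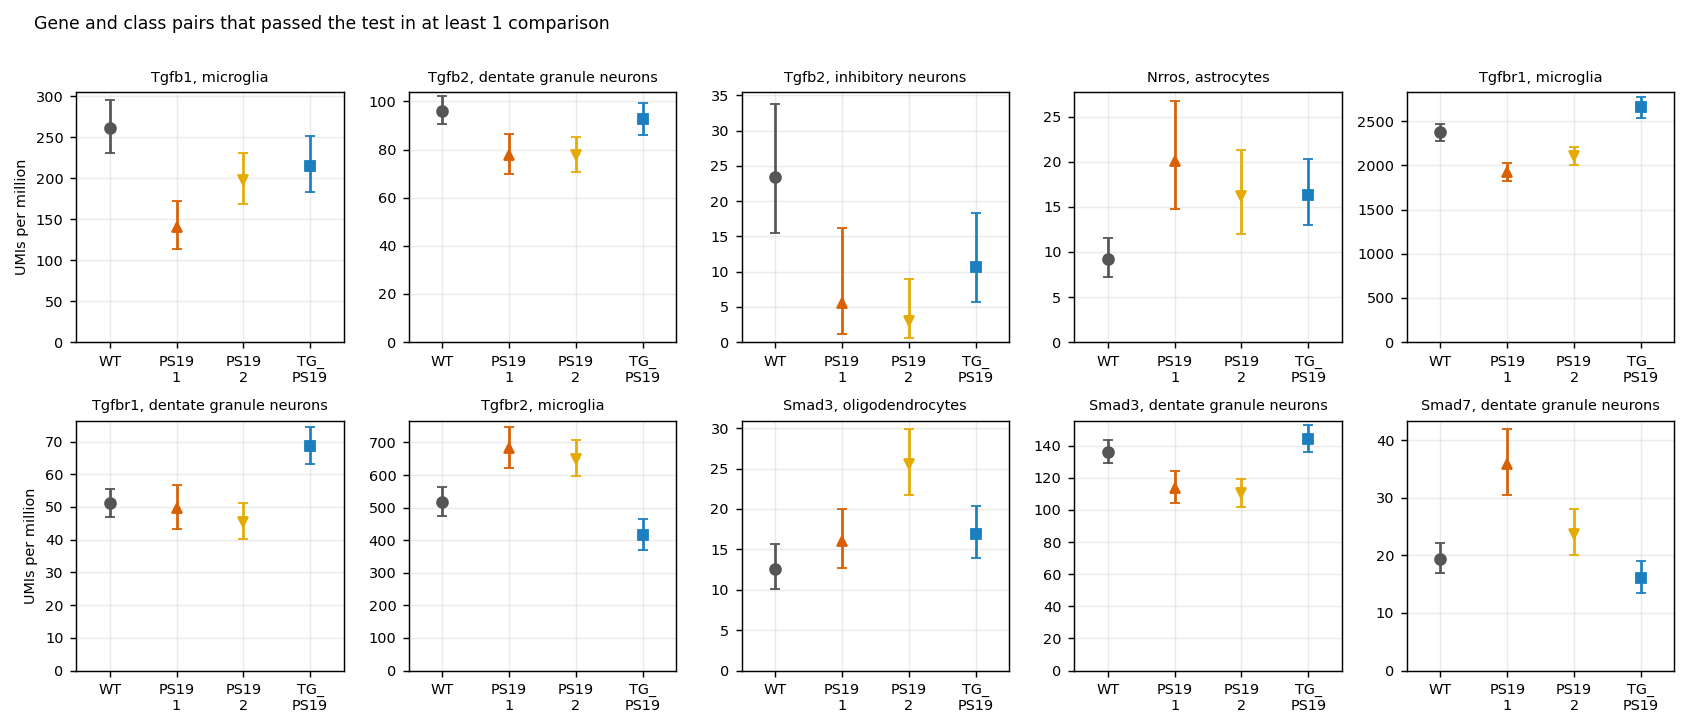
Level (CPM, axes from 0) in each library for the 10 gene and class pairs that passed the test in at least 1 comparison; bars are exact 95% Poisson intervals, which cover counting error only. The PS19 pair lies apart from WT or TG_PS19 in each called comparison, and its own 2 points are well apart for Smad3 in oligodendrocytes and Smad7 in dentate granule neurons.

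**Figure D4:**
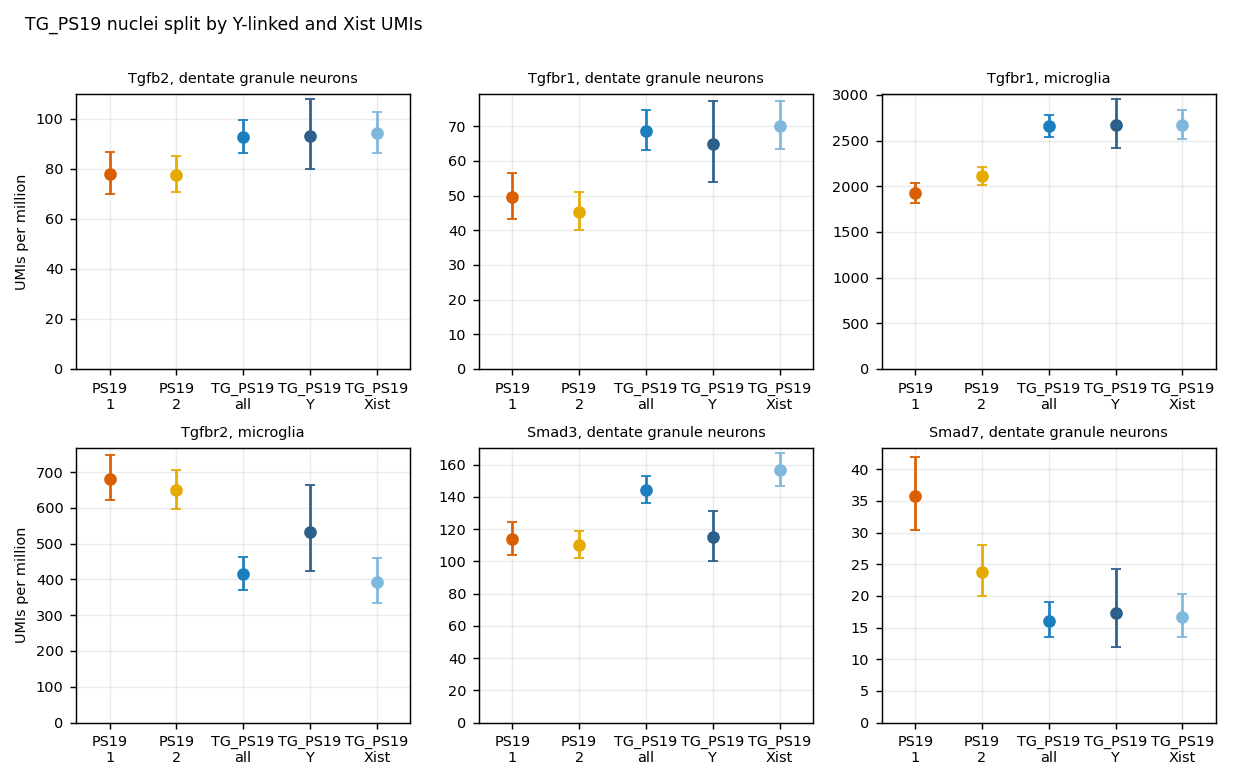
The 6 pairs called in TG_PS19 against PS19, as CPM with exact 95% Poisson intervals: the PS19 libraries, all TG_PS19 nuclei, and TG_PS19 nuclei with a Y-linked or a Xist UMI only. The Y-called nuclei sit with PS19 for Smad3 (115 CPM) and with TG_PS19 for Tgfbr1 in both classes.

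**Figure D5:**
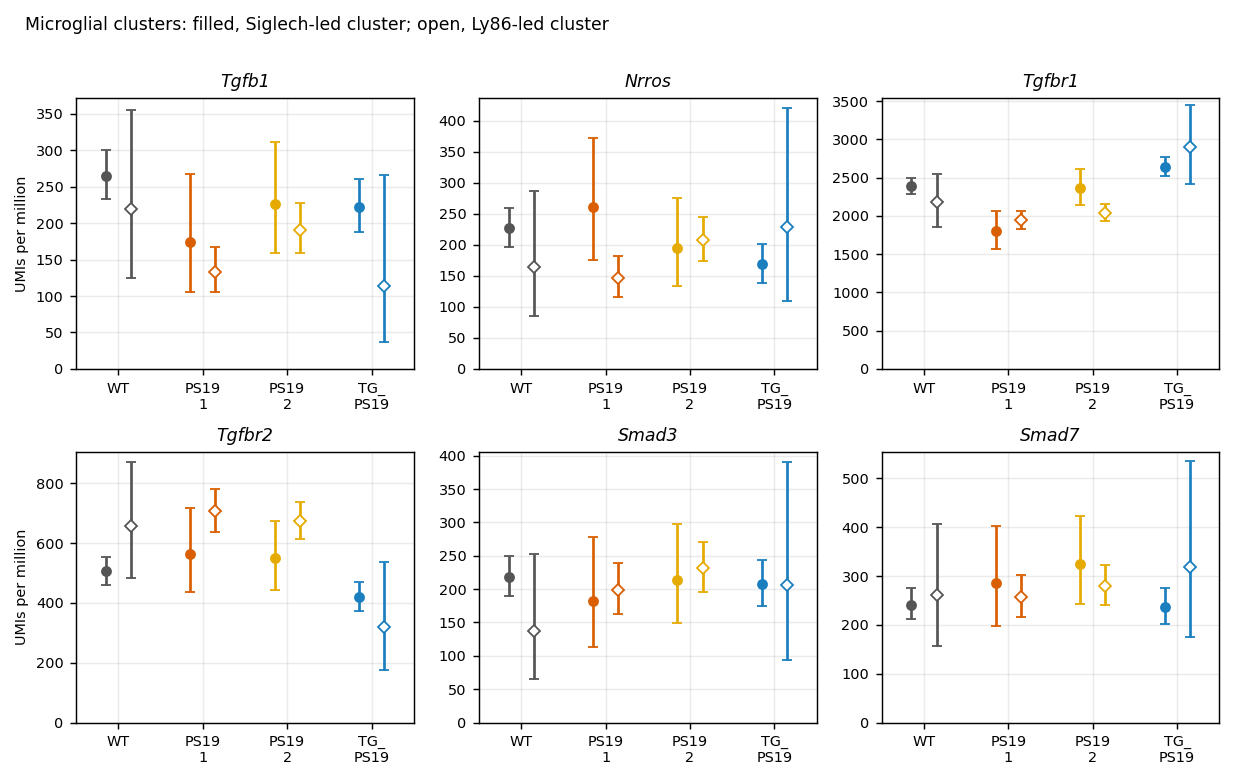
Level of 6 genes (CPM, exact 95% Poisson intervals) in the Siglech cluster (filled) and the Ly86 cluster (open) of each library. Tgfbr1 in TG_PS19 is above PS19 in both clusters, but in the Siglech cluster its interval overlaps that of PS19 replicate 2. The open WT and TG_PS19 points rest on 36 and 20 nuclei.

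The change in microglia was also tested directly against the change in astrocytes, oligodendrocytes and dentate granule neurons. For Tgfbr2, PS19 against WT, microglia and oligodendrocytes differed by 0.68 ± 0.14 on the log2 scale (adjusted p = 9.1e-04 by edgeR, 2.5% of genes called), with 160, 123 and 123 CPM in oligodendrocytes of WT and the PS19 pair. In TG_PS19 against PS19 they differed by -0.77 ± 0.16 (adjusted p = 4.9e-04, 2.01% called). For Nrros, microglia and astrocytes differed by -1.13 ± 0.30 in PS19 against WT (adjusted p = 0.0075, 3.3% called). No other member passed in these tests by edgeR, and none of the 3 did with adjusted residual degrees of freedom.

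Other genes of the pathway were followed in 7 lists, counted over tested gene and class pairs. As the background for these counts, 2.81% of all 144044 tested pairs were called in PS19 against WT (1896 higher and 2155 lower). In TG_PS19 against PS19, 4.72% were called (4453 higher and 2353 lower). In PS19 against WT, 0 pairs of the 16 latency and activation genes rose and 10 of 102 fell, with a median log2 fold change of -0.10. In TG_PS19 against PS19, 3 rose and 1 fell, with a median of -0.05. The median of all genes lay between -0.02 and 0.02 in every class and comparison. Among those that fell was Itgav, an integrin chain that helps release latent TGF-beta, in dentate granule neurons (125 CPM in WT, 80.6 and 75.8 CPM in PS19, log2 fold change -0.66 ± 0.11). Dcn, which encodes the TGF-beta-binding proteoglycan decorin, fell in oligodendrocytes (26.4 CPM to 9.16 and 8.79 CPM). Fibroblast markers in the same oligodendrocytes, 7 of 7 with UMIs, summed to 60.03 CPM in WT against 24.8 and 21.7 CPM in the PS19 pair. Dcn is itself on that marker list, and the part of fibroblast RNA was not tested. Of the co-receptors, Cd109, which dampens receptor signalling, rose in astrocytes from 4.20 CPM to 16.2 and 18.7 CPM, and it fell to 2.96 CPM in TG_PS19. In all, 1 of 64 pairs of that list rose and 1 fell in each comparison, with medians of 0.02 and 0.07.

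Of 187 pairs of intracellular regulators, 0 rose and 2 fell in PS19 against WT, and 7 rose and 4 fell in TG_PS19 against PS19 (medians 0.02 and -0.01). Pmepa1, a target that feeds back on SMAD activation, was the member with the smallest adjusted p: in microglia it was 654.5 CPM in WT, 334 and 354 CPM in the PS19 pair and 660.0 CPM in TG_PS19. On the log2 scale it fell by 0.94 ± 0.16 and then differed by 1.03 ± 0.16 in TG_PS19 against PS19. The Siglech cluster held 93.9% of WT, 21.8% and 21.5% of PS19 and 95.1% of TG_PS19 microglia, high and low in the same groups as Pmepa1. The part of this cluster mix in the result was not tested. Wwp1, a ubiquitin ligase that works with Smad7, rose in TG_PS19 astrocytes (148 and 164 to 217 CPM).

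The induced targets split, with 7 rises and 8 falls of 117 pairs in PS19 against WT and 5 and 11 in TG_PS19 against PS19 (medians -0.06 and -0.09). Junb, an immediate-early gene with many other inducers, was 13.5 CPM in WT astrocytes, rose to 81.6 and 75.1 CPM in the PS19 pair and was 5.72 CPM in TG_PS19. Cdkn1a, the cell-cycle inhibitor p21, was 0.600 CPM in WT oligodendrocytes on 4 UMIs, rose to 21.03 and 25.7 CPM in the PS19 pair and was 4.37 CPM with SORLA added. Timp3, a metalloproteinase inhibitor, rose in TG_PS19 dentate granule neurons from 98.8 and 84.9 to 128 CPM.

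In the BMP branch, which runs through other SMADs, Id3 and Id1 rose in PS19 astrocytes and fell in TG_PS19. Id3 was 185 CPM in WT, 370.1 and 314 CPM in the PS19 pair and 138 CPM in TG_PS19. Id3 is among the leading genes of the Gfap-rich astrocyte cluster. That cluster held 8.46% of WT, 28.45% and 26.0% of PS19 and 6.07% of TG_PS19 astrocytes, the order of Id3 itself. The part of this cluster mix in the result was not tested. Bmp6, a BMP ligand, fell in PS19 oligodendrocytes from 20.6 to 4.16 and 5.64 CPM. It is also among the leading genes of a fibroblast cluster, and fibroblast markers in these oligodendrocytes were 60.03 CPM in WT against 24.8 and 21.7 CPM in the PS19 pair. Their part in the result was not tested. Over the list, 4 of 113 pairs rose and 5 fell in PS19 against WT, and 0 rose and 3 fell in TG_PS19 against PS19 (medians -0.06 and 0.02).

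Of 15 microglial genes known to depend on TGF-beta, 10 fell and 0 rose in PS19 microglia. Their median log2 fold change was -0.73 against 0.01 over all genes of the class. Of all genes tested in microglia, 8.85% were called in PS19 against WT and 9.33% in TG_PS19 against PS19. Fcrls was 444 CPM in WT, 166 and 131 CPM in the PS19 pair and 345 CPM in TG_PS19. Tmem119, Olfml3, Siglech and Slc2a5, all homeostatic markers, fell by 1.17, 1.26, 0.93 and 1.55 on the log2 scale. In TG_PS19 against PS19, 12 of the 15 rose and 0 fell (median 0.79), including Fcrls and Gpr34 (1.09 ± 0.15). The rise of Fcrls was not called among Y-called nuclei (log2 fold change 0.62). Of the 16 disease-associated microglial genes, 14 rose in PS19 microglia and 14 fell in TG_PS19 (medians 2.74 and -3.78), among them Axl (14.9 CPM in WT, 132 and 111 CPM in PS19, 5.45 CPM in TG_PS19) and Clec7a (5.98, 132, 159 and 5.45 CPM). These 2 lists were chosen with earlier results of these samples known, the genes also helped to form the clusters, and the lists are no independent evidence of a direction.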

How the data were processed

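UMI counts per gene and nucleus were deposited by the authors as raw count matrices made with Cell Ranger 7.1.0 on build GRCm38, per the submitters' processing notes; barcode and feature lists were deposited beside them. Annotation release, intron counting and strand setting are not given in the sources used here. Of the 55403 features, 2 are the human genes MAPT and SORL1. About 10000 nuclei entered each run.

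Nuclei with at least 500 UMIs, 300 genes and at most 5% mitochondrial UMIs were kept. Doublets were scored per library against simulated doublets (30 neighbours) and left out at 0.8% per 1000 barcodes (3.7% to 10.21%). Clusters came from 2000 variable genes without mitochondrial, Y-linked and targeted genes or Xist, 30 components, 15 neighbours and Leiden resolution 1.0, without integration. A cluster took a class name from 19 marker lists where at least 3 markers and 55% of a list were raised (70% for dentate granule and CA1 lists, 50% for CA3, 3 markers for excitatory neurons in general). These naming limits, and the 30 neighbours, were set after the clusters had been seen, and before the levels of the 10 genes were. A class name means resemblance by markers. Clusters left unnamed held 5.27% of WT, 1.32% and 1.69% of PS19 and 8.29% of TG_PS19 nuclei. Of 17 named classes, 12 reached 50 nuclei per library and entered the tests.

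Counts were summed per class and library and fitted with edgeR 4.0.16 (R 4.3.3) over all 4 libraries: default count filter, TMM scaling, quasi-likelihood F-test with legacy residual degrees of freedom, two-sided. There was 1 residual degree of freedom, so the lone WT and TG_PS19 libraries are assumed to vary like the PS19 pair. Each edgeR SE after ± was worked back from the F statistic, as the absolute log2 fold change over the square root of F. The fit was tested on simulated data. Differences between classes were fitted with library, class and the product of class and group. The 10 genes and the pathway lists were chosen with earlier results of these data known. All 10 genes are reported in every tested class, and of other pathway genes those called, at most 25 per comparison by adjusted p, of which the text describes a selection by list. Intervals are exact (Poisson for CPM, Clopper-Pearson for shares) at 95%. They reflect counting alone, as does the limit of 3 counts set where none was seen. Promoter sequences are RefSeq's (GRCm38.p6), found for 6 of the 10 genes. Alternatives covered scaling, the filter, DESeq2 1.42.0, the prior, doublets, clustering, depth, Y-called nuclei and each PS19 library. One result of the comparison of genes across classes is not reported here.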

Additional observations from a re-analysis of the deposited data

Results flagged for a closer look

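For Nrros in PS19 against WT, the log2 fold change in microglia was lower than that in astrocytes by 1.13 (difference -1.13 ± 0.30, adjusted p = 0.0075 by edgeR), and 9 of 12 alternatives kept the call. For Tgfbr2, the change in microglia differed from that in oligodendrocytes by 0.68 in PS19 against WT (11 of 12 alternatives) and by -0.77 in TG_PS19 against PS19 (9 of 12 alternatives). What marks these results is a tested difference of the same contrast between cell classes. DESeq2 was not run on these differences and is not among the 12 alternatives. Both Tgfbr2 values use the PS19 libraries, so they are not independent of each other. The mix of the Siglech and Ly86 clusters among microglia differed between libraries, and its part in these differences was not tested.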

How the results depend on the processing

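No paired analysis was possible because WT and TG_PS19 have 1 library each and share fewer than 2 replicate numbers with PS19. The number of member and class pairs called, PS19 against WT, was 5, and it was 0 with DESeq2 and 1 with sums thinned to equal depth. The class and gene pairs called, PS19 against WT, went from 4051 to 347 and 2158. The member and class pairs called, TG_PS19 against PS19, were 6, and 0 both with DESeq2 and among Y-called nuclei. The class and gene pairs called, TG_PS19 against PS19, went from 6806 to 752 and 4201. The 3 differences between classes were 0 with adjusted residual degrees of freedom. The other alternatives moved these counts by at most 1.5 times, and no value that had passed the test changed sign. The causes were not tested, beyond the fewer UMIs left by thinning and by keeping Y-called nuclei. The first doublet setting, added after seeing the data, gave 5 and 5 called pairs. Under it WT had 0 choroid plexus, 0 ependymal and 3 border macrophage nuclei, against 33, 15 and 26 in the main setting. The WT levels of these classes therefore depend on the doublet setting. Without one PS19 library there is no residual degree of freedom, so those fits give values with no test. The first rule for naming clusters was not rerun. The smallest tested classes (Cajal-Retzius neurons, 186942 UMIs in 1 library) and counts such as the 3 Tgfb2 UMIs in inhibitory neurons limit what depth can show.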

Other observations

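Some classes too small to test carried TGF-beta transcripts. Border macrophages held 34, 11, 13 and 7 Tgfbr2 UMIs in WT, PS19 replicate 1, PS19 replicate 2 and TG_PS19 (811, 1135, 757 and 379 CPM), and 10, 3, 3 and 4 Tgfb1 UMIs. T-cell nuclei, 12, 16, 17 and 1 per library, held 5, 17, 11 and 0 Tgfbr2 UMIs. Choroid plexus epithelium held 162 to 217 CPM of Tgfbr2, more than any tested neuronal class. Newly formed oligodendrocytes had 0 Tgfbr2 and 0 Nrros UMIs in every library, while oligodendrocytes had 123 to 160 CPM of Tgfbr2.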
